A study of Mus musculus with 12 samples.

Results

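The genes described here code for transcription factors that give regions of the developing hindbrain and its neighbours their identity. They were chosen by name alone, as every gene whose platform symbol is Hoxa, Hoxb, Hoxc, Hoxd, Meis, Pbx, Irx, Zic or En followed directly by 1 or 2 digits. The rule found 56 of the 19053 genes with a single symbol on the array, represented by 96 probes. The samples were choroid plexus (CP) tumors of the hindbrain from Math1-cre;Rosa26-NICD1 mice and CP from wild-type mice, both on a C57BL/6 background, taken on the day of birth (P0) and on postnatal day 21 (P21). In the tumor mice, Cre recombinase under control of Math1 (Atoh1), a gene of the rhombic lip and its descendants, switches on the intracellular domain of Notch1 from the Rosa26 locus. Wild-type mice served as controls at both ages and carried neither allele. RNA of 3 samples per group was measured on 12 Illumina BeadChip arrays, and each sample held tissue pooled from several animals of 1 genotype. The arrays of P0 lay on 1 chip and those of P21 on the other, so age cannot be told apart from the chip, and tumors lay at the first positions of each chip and wild-type CP at the last, so genotype cannot be told apart from position.

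Hox genes are laid out in 4 clusters and are expressed in nested domains along the body axis, with the anterior members of each cluster marking the rhombomeres of the hindbrain and the posterior members marking the trunk and limbs. Pbx and Meis proteins belong to the TALE class of homeodomain proteins and bind DNA together with Hox proteins. Irx genes pattern the neural plate, heart and limbs, Zic genes code for zinc finger proteins of the dorsal neural tube, cerebellum and meninges, and En genes set up the midbrain-hindbrain boundary and act in the cerebellum. The epithelium of the hindbrain CP derives from the roof plate next to the rhombic lip, within the territory where these factors act.

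All arrays carried the RNA of CP epithelium. Otx2, a transcription factor of this epithelium, had normalized log2 intensities of 13.78 to 14.83 on the 12 arrays, and Ttr, its main secreted protein, of 15.91 to 16.05. Each array detected 19043 to 23632 of its 45281 probes, and the median raw signal was 134 to 179.9. Signal of Notch1 was higher in tumors by limma, by 1.14 ± 0.25 log2 (SE) in newborns with an adjusted p of 0.0116 and by 2.12 ± 0.25 at P21 with an adjusted p of 8.3e-05, but where its probe lies relative to the transgene was not given in the sources used here. The P21 tumor sample 1 stood apart from the other P21 tumors in markers of cerebellar neurons and oligodendrocytes. The summed level of the 7 tested genes of the cerebellar granule neuron list was 35158 in it, 2987 and 1908 in P21 tumor samples 2 and 3, and 1922 to 3502 on all other arrays. The defining granule cell genes Atoh1, Barhl2, Neurod1, Pax6 and Gabra6 did not pass the detection filter. The summed level of the 7 tested genes of the oligodendrocyte lineage was 13588 in this sample against 4300 and 4426. Mag and Mog, which code for myelin proteins, were at 12.18 and 10.57 against 7.65 and 6.59 for Mag and 5.70 and 5.43 for Mog. Olig1 (11.51), Sox10 (9.74) and Cnp (8.27) were also highest there. Mbp of the same list was lowest there (10.69 against 11.06 and 11.04), and Pdgfra lay between the others (10.71 against 10.58 and 10.89). The members' P21 values that moved most without this sample are given below with and without it.

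Of the 56 genes, 25 could be tested, and 5 of these differed between tumor and wild-type CP at both ages and in the same direction. The share of all genes called at both ages was not counted, so nothing particular to these genes is read from that count. Irx3, Irx5 and Zic4 were higher in tumors, and Irx2 and Meis2 were lower. The 250 bases before the start of transcription are shown for those present in the RefSeq promoter table, so that a reader can see what these promoters hold. The table (build GRCm38.p6) held 4 of the 5, and Irx5 had no entry. Capitals mark matches to the cores TGGGAA, bound by RBPJ, the DNA-binding partner of the Notch intracellular domain, and TGACAG, bound by Meis proteins, on either strand.
Irx3, chr8:91801655-91801904, minus strand: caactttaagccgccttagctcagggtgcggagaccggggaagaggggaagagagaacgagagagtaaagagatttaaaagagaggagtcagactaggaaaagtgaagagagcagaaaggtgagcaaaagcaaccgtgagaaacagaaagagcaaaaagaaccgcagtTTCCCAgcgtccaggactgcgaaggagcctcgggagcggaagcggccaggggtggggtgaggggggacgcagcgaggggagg
Zic4, chr9:91368722-91368971, plus strand: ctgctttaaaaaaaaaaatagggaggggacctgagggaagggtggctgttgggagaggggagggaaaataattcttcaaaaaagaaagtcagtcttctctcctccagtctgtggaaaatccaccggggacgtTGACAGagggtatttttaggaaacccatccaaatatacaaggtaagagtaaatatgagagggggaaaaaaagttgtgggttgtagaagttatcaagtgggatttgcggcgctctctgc
Irx2, chr13:72628570-72628819, plus strand: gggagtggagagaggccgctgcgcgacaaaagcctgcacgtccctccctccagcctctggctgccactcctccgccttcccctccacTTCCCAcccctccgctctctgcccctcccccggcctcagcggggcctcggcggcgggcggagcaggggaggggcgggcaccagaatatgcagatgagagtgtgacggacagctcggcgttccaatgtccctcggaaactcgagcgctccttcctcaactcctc
Meis2, chr2:116064620-116064869, minus strand: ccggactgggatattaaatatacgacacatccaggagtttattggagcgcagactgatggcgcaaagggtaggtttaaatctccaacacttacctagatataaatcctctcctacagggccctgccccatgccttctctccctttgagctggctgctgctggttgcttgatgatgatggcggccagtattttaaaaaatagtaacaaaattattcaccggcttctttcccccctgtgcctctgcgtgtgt
TGGGAA was found once in Irx3, beginning at position -82 from the start, and once in Irx2 at -163, in both cases on the opposite strand, where it reads TTCCCA. Zic4 held TGACAG once, at -118. The composite site TGATNNAT of Pbx with Hox proteins was searched on both strands as well and had no match in these windows, nor did Meis2 hold a match to any of the cores. Of 32851 promoter windows of the same length, 21.6% held TGGGAA, 15.9% held TGACAG and 7.7% held TGATNNAT. The match to TGGGAA was present in a gene that was higher and in a gene that was lower in the tumors.

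A gene was called detected in a group when its detection p-value was under 0.05 on all 3 arrays of the group. By that rule 16 of the 56 genes were detected in P0 tumors, 19 in P0 wild-type CP, 16 in P21 tumors and 17 in P21 wild-type CP. Among all 19053 genes the detected share was 53.7% to 56.5% in the 4 groups, against 28.6% to 33.9% of these 56. The lower share lay with the Hox clusters. Of 38 Hox genes, 4 were detected in P0 tumors, 6 in P0 wild-type CP, 3 in P21 tumors and 4 in P21 wild-type CP, and 22 were detected on no array. None of the 9 Hoxc genes was detected in any group.

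In all 4 groups 14 genes were detected. These were Hoxa2 and Hoxa13 of the Hox clusters, Meis1 and Meis2, the 3 Pbx genes Pbx2, Pbx3 and Pbx4, Irx2, Irx3 and Irx5, Zic1, Zic2 and Zic4, and En2. A further 8 genes were detected in some groups. Hoxa7 and Hoxb5 were detected in P0 wild-type CP alone, Hoxb4 and En1 in P21 wild-type CP alone, and Hoxa4 in P21 tumors alone. Hoxd8 was detected in both P0 groups, Meis3 in P0 wild-type CP and P21 tumors, and Hoxb2 in all groups but the P21 tumors, where it was detected on 2 of 3 arrays. Detection is a threshold near background and was not tested between groups. Hoxa13, a gene of the distal limb and hindgut, was seen by 1 of its 3 probes on all arrays (6.68 to 7.63) while the other probes were detected on 1 array and on none, so its detection rests on a single probe. Irx1, Irx4, Irx6 and Zic5 were the members outside the Hox clusters that did not pass the filter, although Irx1 and Irx4 flank Irx2 on chromosome 13, Irx6 follows Irx5 on chromosome 8 and Zic5 lies next to Zic2 on chromosome 14 with no protein-coding gene between them.

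**Figure D1:**
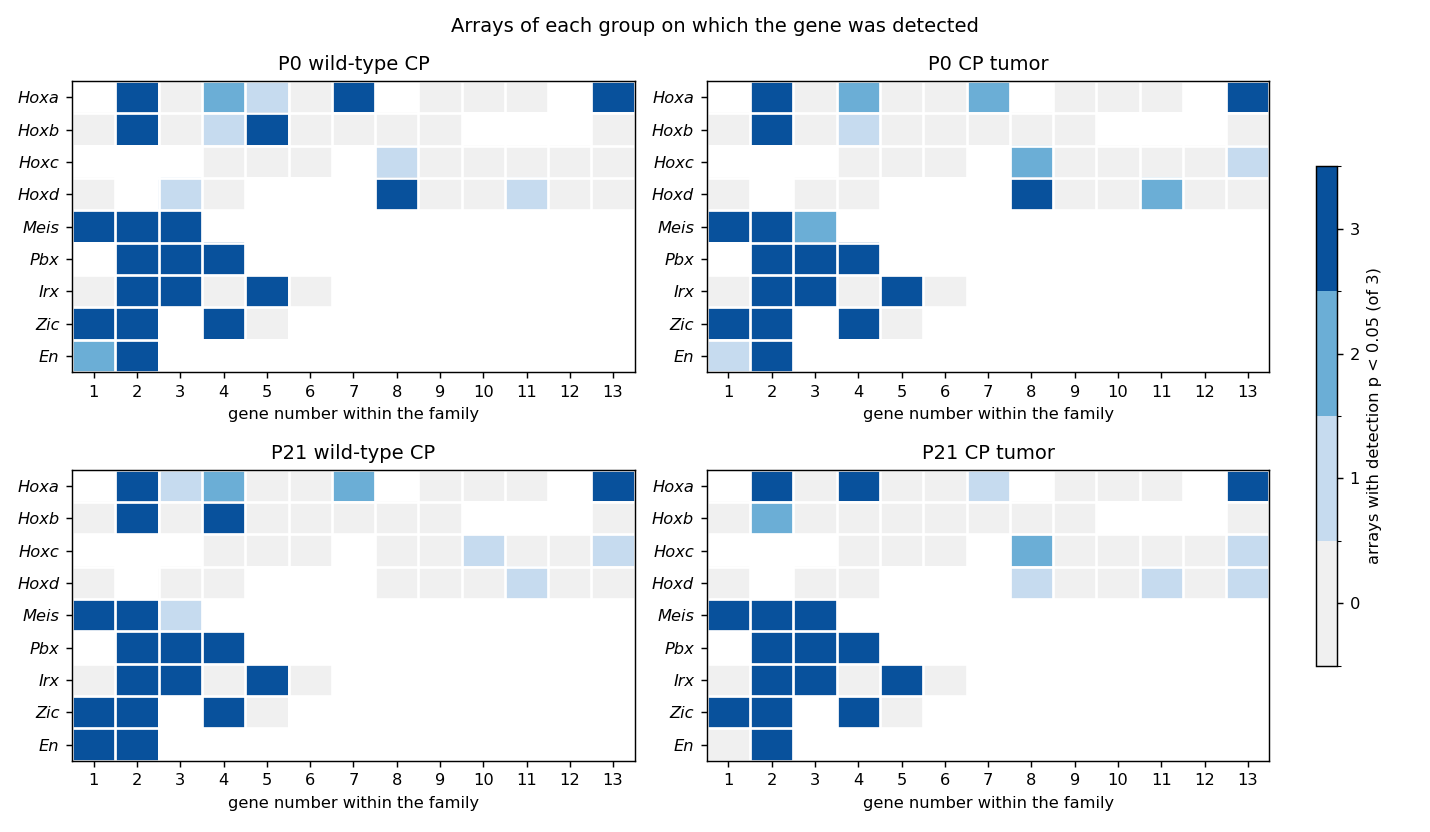
Each cell is a gene, by family (rows) and number within the family (columns), in each of the 4 groups; the colour gives on how many of the 3 arrays its detection p-value was under 0.05, and blank cells are numbers with no gene on the array. The Hox rows are mostly at 0, with Hoxa2 and Hoxa13 detected on all arrays of all groups, while Pbx2 to Pbx4, Irx2, Irx3, Irx5, Zic1, Zic2 and Zic4 are detected throughout.

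For comparison between groups a gene had to be detected on at least 3 of the 12 arrays, which 25 of the 56 genes were. The remaining 31 (27 Hox genes, Irx1, Irx4, Irx6 and Zic5) have no test. Since a gene could pass through the group in which it was brightest, the counts below describe the genes tested and not the whole set. Differences are on the scale of background-corrected, quantile-normalized log2 intensity, and the test is limma over 12379 genes with Benjamini-Hochberg adjustment and a threshold of 0.05. Standard errors (SE) use the spread of all 4 groups together. In tissue samples of this kind, fewer cells of a type and less RNA per cell cannot be told apart.

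At P0, 3 of the 25 genes were higher in tumors (12%), against 5.0% of all genes tested, and 3 were lower (12%), against 6.28%. At P21, 3 were higher (12%), against 10.5% of all genes, and 4 were lower (16%), against 7.44%. With 25 genes tested, each gene moves such a share by 4%, and nothing particular to these genes is read from such counts. The median difference of the 25 genes was -0.02 at P0 and 0.02 at P21, against -0.06 and -0.05 for all genes. The P0 count of 6 fell to 3 without P0 tumor sample 3, and the P21 count of 7 fell to 4 without P21 tumor sample 1, without P21 tumor sample 2 or without P21 wild-type sample 3.

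The tested Irx genes did not all differ in the same direction. Irx1 and Irx4 beside Irx2, and Irx6 beside Irx5, were not tested, so the clusters themselves are not compared. Irx3 and Irx5, neighbours on chromosome 8, were higher in tumors, and Irx2 on chromosome 13 was lower, at both ages. Irx3 and Irx5 overlap in their known roles in heart and limb development in mice.
Irx3 had log2 intensities of 9.89, 9.10 and 9.97 in the P0 tumors and 7.74, 8.30 and 8.47 in P0 wild-type CP. At P21 they were 8.39, 9.37 and 9.36 in tumors and 7.47, 7.72 and 7.70 in wild-type CP. All tumors lay above all wild-type samples of their age, with P21 tumor sample 1 the lowest tumor. The difference was 1.48 ± 0.32 at P0 (2.79-fold higher, limma adjusted p = 0.0104) and, at P21, 1.41 ± 0.32 (2.65-fold higher, adjusted p = 0.00791). Without P0 tumor sample 3 the P0 difference was 1.32 with an adjusted p of 0.052.

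Irx5 gave 8.91, 8.92 and 9.67 in the P0 tumors and 8.17, 7.31 and 7.40 in P0 wild-type CP. At P21 the values were 9.09, 9.32 and 9.12 in tumors and 8.21, 8.11 and 7.94 in wild-type CP. The groups did not overlap at either age. Irx5 was higher in tumors by 1.54 ± 0.27 at P0 (2.91-fold, limma adjusted p = 0.0031) and by 1.09 ± 0.27 at P21 (2.13-fold, adjusted p = 0.0124). The P21 call was lost without P21 tumor sample 2 (1.02, adjusted p = 0.0553) and without P21 wild-type sample 3 (1.02, adjusted p = 0.0524).

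Irx2 went the other way. Its values were 6.73, 7.29 and 6.60 in the P0 tumors against 8.50, 8.12 and 8.52 in P0 wild-type CP, and 7.50, 6.00 and 5.70 in the P21 tumors against 8.01, 8.12 and 7.91 in P21 wild-type CP. Every tumor lay below every wild-type sample of its age, and P21 tumor sample 1 was the tumor closest to them. The difference was -1.51 ± 0.38 at P0 (2.85-fold lower, limma adjusted p = 0.0242) and -1.61 ± 0.38 at P21 (3.06-fold lower, adjusted p = 0.0105). A second Irx2 probe fell as well, by 1.91 at P0 (adjusted p = 0.0089 over 20021 probes) and by 1.34 at P21 (adjusted p = 0.034). For the brighter probe the P0 call was lost with cyclic loess (-1.44, adjusted p = 0.0506), with median scaling (-1.38, adjusted p = 0.0624) and without P0 tumor sample 1 or 3 or P0 wild-type sample 1 or 3 (adjusted p = 0.0642 to 0.0949). The P21 call was lost without P21 tumor sample 2 (-1.41, adjusted p = 0.0536), and without P21 tumor sample 1 the P21 difference was -2.17 (adjusted p = 1e-04). Without background correction the Irx2 differences were -0.96 and -0.88.

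**Figure D2:**
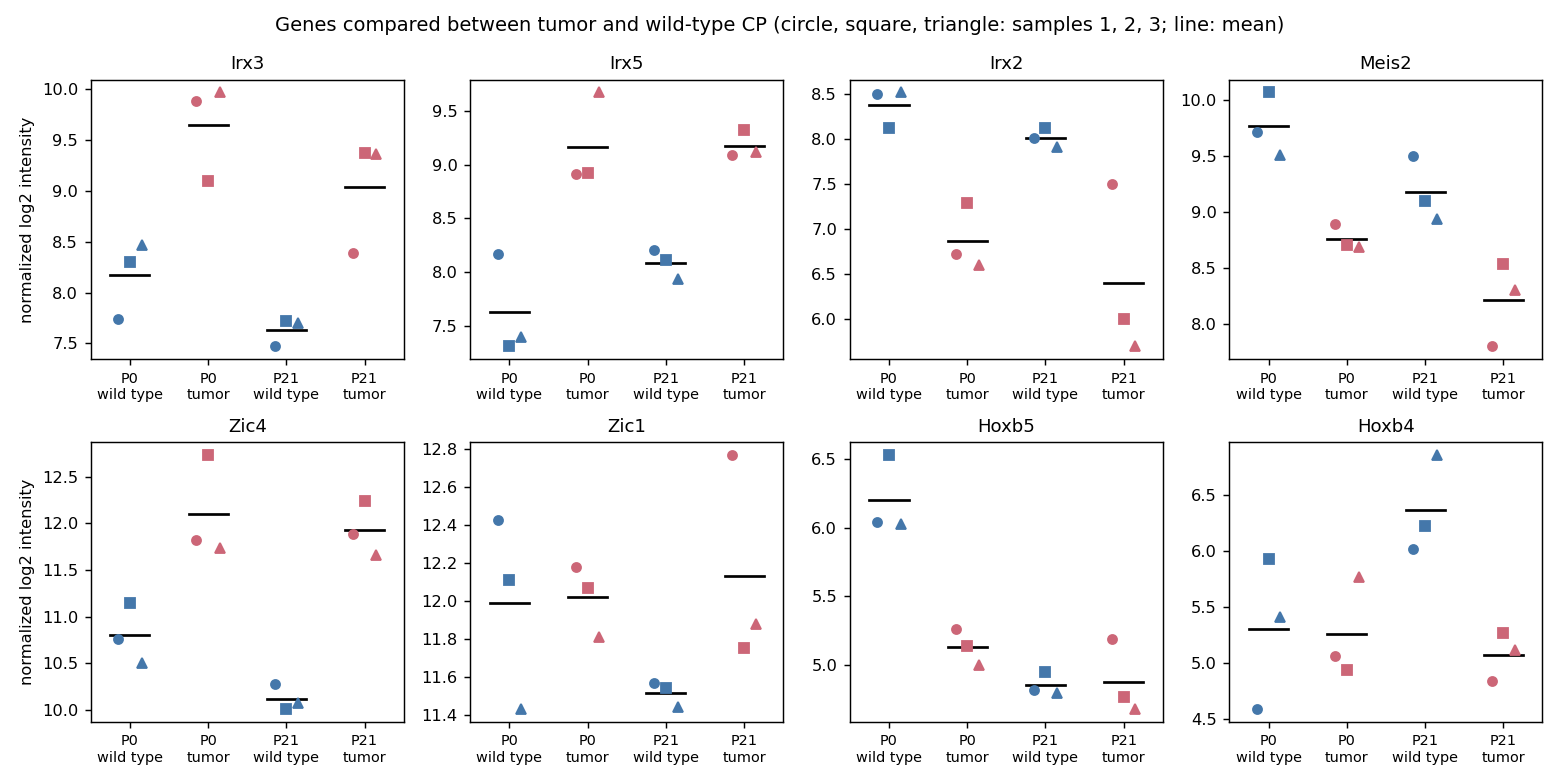
Normalized log2 intensity (y axis) of Irx3, Irx5, Irx2, Meis2, Zic4, Zic1, Hoxb5 and Hoxb4, for the 3 samples of each group (symbols) with the group mean (line). Zic1 did not pass the test between tumor and wild-type CP at either age, and En1, which passed at P21, is not drawn here. Tumor and wild-type samples of the same age do not overlap for Irx3, Irx5, Zic4, Irx2 and Meis2.

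Zic4 was the Zic gene that differed. Its values were 11.82, 12.73 and 11.74 in the P0 tumors and 10.76, 11.15 and 10.50 in P0 wild-type CP. At P21 they were 11.88, 12.24 and 11.66 in tumors and 10.28, 10.01 and 10.07 in wild-type CP. No tumor overlapped the wild-type samples of its age. Zic4 was higher in tumors by 1.29 ± 0.28 at P0 (2.45-fold, limma adjusted p = 0.0111) and by 1.81 ± 0.28 at P21 (3.50-fold, adjusted p = 0.000649). The P0 call was lost in a fit of the P0 arrays alone (1.29, adjusted p = 0.0614).

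The 5 Zic4 probes did not all go the same way. At P21 4 of them were higher in tumors, by 1.70 to 1.81 (limma adjusted p = 0.000359 to 0.001 over 20021 probes), and the remaining probe was lower by 0.82 ± 0.23 (difference -0.82, adjusted p = 0.0286). At P0 the same 4 probes were higher by 0.92 to 1.74, of which 3 passed the test and the other had an adjusted p of 0.0501, and the remaining probe had a difference of -0.69 (adjusted p = 0.0805). Where in the Zic4 transcripts each probe lies was not given in the sources used here. With the mean of the probes in place of the brightest, the Zic4 differences were 0.85 at P0 (adjusted p = 0.00512) and 1.25 at P21.

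**Figure D3:**
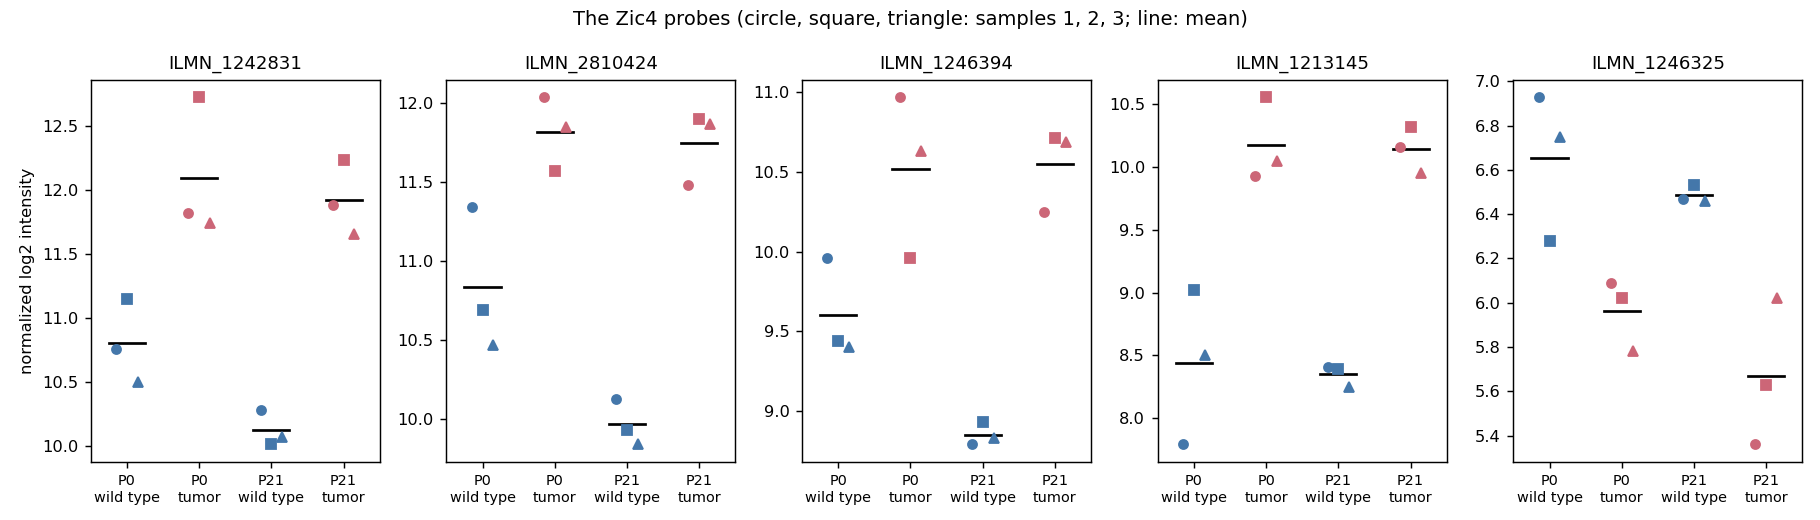
Normalized log2 intensity (y axis) of each of the 5 Zic4 probes (panels) in the 3 samples of each group, with the group mean as a line. Tumors are above wild-type CP for 4 probes, and below it for the remaining probe.

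Zic1, which lies next to Zic4 on chromosome 9, did not pass the test. Its values were 12.18, 12.07 and 11.81 in P0 tumors, 12.43, 12.11 and 11.43 in P0 wild-type CP, 12.77, 11.75 and 11.88 in P21 tumors and 11.57, 11.54 and 11.44 in P21 wild-type CP. The P0 groups overlapped and the P21 groups did not. The difference was 0.03 at P0 (95% interval -0.62 to 0.68, limma adjusted p = 0.968) and 0.62 at P21 (-0.03 to 1.26, adjusted p = 0.191). Without P21 tumor sample 1 the P21 difference was 0.30 (adjusted p = 0.563). Zic2 had a difference of 1.13 at P0 (0.13 to 2.13, adjusted p = 0.144), with a wide spread in wild-type CP (6.19, 8.52 and 7.46). Without P0 wild-type sample 2 that difference was 1.70 with an adjusted p of 0.0161. The meninges, a known site of Zic expression, were followed through a list of 18 genes of meninges and fibroblasts, of which 2 were higher and 1 lower in P0 tumors and 8 higher and 1 lower in P21 tumors. Its summed level was 26245 to 33278 in P0 tumors, below the 34656 to 39572 of P0 wild-type CP, and 32250 to 37294 in P21 tumors, above the 29615 to 32033 of P21 wild-type CP. Its part in the Zic values was not tested.

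Among the TALE partners of Hox proteins, Meis2 was lower in tumors at both ages. Its values were 8.89, 8.71 and 8.69 in P0 tumors and 9.72, 10.07 and 9.51 in P0 wild-type CP. At P21 they were 7.80, 8.54 and 8.30 in tumors and 9.50, 9.10 and 8.94 in wild-type CP. The groups did not overlap, and P21 tumor sample 1 was the lowest. The difference was -1.0 ± 0.24 at P0 (limma adjusted p = 0.0175) and -0.96 ± 0.24 at P21 (1.95-fold lower, adjusted p = 0.0131).

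Of 4 Meis2 probes that passed the filter, 2 were lower at both ages, with differences of -1.0 and -1.12 at P0 and -0.96 and -1.12 at P21. The other 2 probes, which were dim, gave 0.35 and -0.36 at P0 and -0.11 and 0.58 at P21. The mean of the probes accordingly gave -0.53 at P0 with a limma adjusted p of 0.115, and -0.40 at P21 with 0.2. The P0 call was also lost in a fit of the P0 arrays alone (adjusted p = 0.0581), without P0 tumor sample 3 (0.0669) and without P0 wild-type sample 2 (0.0522). The P21 call was lost with median scaling (-0.71, adjusted p = 0.0667), without P21 tumor sample 1 (-0.76, adjusted p = 0.052) and without P21 wild-type sample 1 (-0.80, adjusted p = 0.0702).

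Meis1, Meis3, Pbx2, Pbx3 and Pbx4 did not pass the test between tumor and wild-type CP at either age. Meis1 was at 10.52, 11.04 and 10.41 in P0 tumors, 10.98, 11.28 and 10.72 in P0 wild-type CP, 10.51, 10.14 and 9.93 in P21 tumors and 9.90, 9.68 and 9.70 in P21 wild-type CP. Pbx2 was at 10.09, 9.30 and 9.82 in P0 tumors, 9.51, 9.61 and 9.81 in P0 wild-type CP, 8.98, 8.91 and 8.90 in P21 tumors and 8.66, 8.92 and 8.77 in P21 wild-type CP. The P0 groups overlapped for both genes. Pbx3 at P21 was at 6.79, 6.61 and 7.09 in tumors and 7.50, 7.61 and 7.60 in wild-type CP, a difference of -0.74 with a limma adjusted p of 0.273, and passed only in a fit of the P21 arrays alone (adjusted p = 0.0163) and with array weights (-0.82, adjusted p = 0.0127). At P0 Pbx3 was at 8.05, 8.45 and 7.84 in tumors and 6.76, 8.13 and 8.95 in wild-type CP, with overlap.

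**Figure D4:**
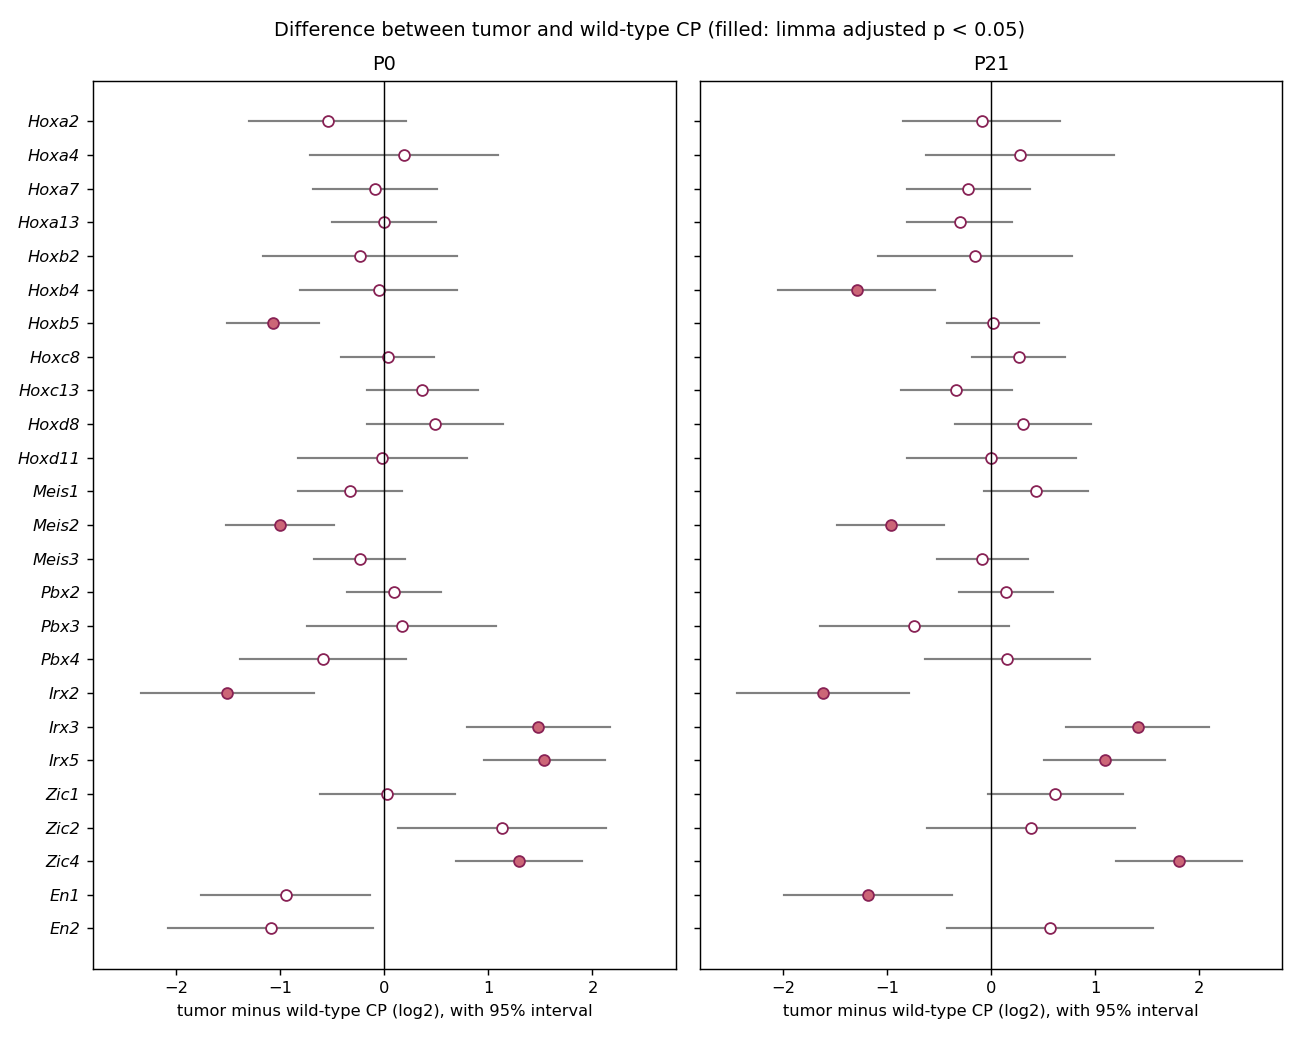
Difference between tumor and wild-type CP (x axis, log2) with its 95% interval for the genes tested, at P0 and at P21; filled symbols passed the limma test at an adjusted p under 0.05. Irx3, Irx5 and Zic4 lie to the right of 0 and Irx2 and Meis2 to the left at both ages.

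In the Hox clusters 2 genes differed, each at 1 age, and both were near background in the tumors. Hoxb5, a gene of the posterior hindbrain and spinal cord, was at 5.26, 5.14 and 5.0 in P0 tumors and at 6.04, 6.53 and 6.03 in P0 wild-type CP. The tumors were not above background on any of the 3 arrays, so the gene was at least 1.45-fold lower in them (fitted difference -1.07 ± 0.20, limma adjusted p = 0.00559). Hoxb5 passed the detection filter only through its 3 arrays of P0 wild-type CP, the group in which it was high, so its differences from that group describe these arrays and lend no support beyond them. At P21 Hoxb5 was below background in both groups, at 5.19, 4.77 and 4.68 in tumors and 4.82, 4.95 and 4.80 in wild-type CP. The size of the P0 difference depended on the background correction (-0.44 without it, -0.49 in the authors' normalized values and -0.65 with an offset of 50), and the call held in each.

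Hoxb4, which marks the hindbrain from its posterior rhombomeres backwards, was at 4.84, 5.27 and 5.12 in P21 tumors and 6.02, 6.23 and 6.86 in P21 wild-type CP. No tumor was above background, and the gene was at least 1.77-fold lower in tumors (fitted difference -1.29 ± 0.35, limma adjusted p = 0.0211). At P0 it was at 5.06, 4.94 and 5.77 in tumors and 4.59, 5.93 and 5.41 in wild-type CP, and the groups overlapped. Hoxb4 too passed the detection filter only through 1 group, P21 wild-type CP, in which it was high, and its differences from that group are a description of these arrays. The P21 call was lost without background correction (-0.55, adjusted p = 0.0777) and without P21 tumor sample 1 (adjusted p = 0.0626), P21 wild-type sample 2 (0.0512) or P21 wild-type sample 3 (0.0957). With an offset of 50 the fitted difference was -0.79, and in the authors' normalized values it was -0.61.

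Hoxa2, the Hox gene of the second rhombomere, was detected on all arrays and did not pass the test at either age. It was at 8.22, 8.06 and 8.45 in P0 tumors and 8.97, 8.44 and 8.97 in P0 wild-type CP, where the groups overlapped narrowly, with a difference of -0.55 (limma adjusted p = 0.361). At P21 it was at 6.23, 7.90 and 7.41 in tumors and 7.31, 7.11 and 7.39 in wild-type CP (difference -0.09, adjusted p = 0.895), with P21 tumor sample 1 the lowest, and the difference was 0.39 without that sample (adjusted p = 0.371). Hoxb2 was at 6.76, 5.88 and 6.91 in P0 tumors, 7.27, 6.48 and 6.52 in P0 wild-type CP, 5.12, 6.80 and 6.32 in P21 tumors and 5.77, 6.22 and 6.71 in P21 wild-type CP, with overlap at both ages. Hoxd8 at P0 was at 7.06, 6.75 and 7.07 in tumors and 7.00, 5.83 and 6.60 in wild-type CP, again with overlap. Hoxc8, the brightest of the Hoxc genes, was at 5.62, 5.70 and 5.74 in P0 tumors, 5.38, 5.61 and 5.98 in P0 wild-type CP, 5.75, 5.78 and 5.46 in P21 tumors and 5.26, 5.25 and 5.69 in P21 wild-type CP, with overlap at both ages. Hoxa4, Hoxa7, Hoxa13, Hoxb2, Hoxc8, Hoxc13, Hoxd8 and Hoxd11 also did not pass the test between tumor and wild-type CP at either age.

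Of the En genes En1 passed the test at P21. It was at 5.29, 4.89 and 5.21 in P21 tumors, none above background, and 6.71, 6.12 and 6.10 in P21 wild-type CP, at least 1.70-fold lower in tumors (fitted difference -1.18 ± 0.37, limma adjusted p = 0.0447). This call was lost in 5 of the other processing settings (adjusted p = 0.0509 to 0.0985) and in 8 of the 12 fits without 1 sample. These left out any of the 6 P21 samples (adjusted p = 0.065 to 0.168, the highest without P21 wild-type sample 1), P0 tumor sample 2 (0.0534) or P0 tumor sample 3 (0.0592). The fitted difference was -0.49 without background correction, -0.55 in the authors' normalized values and -0.72 with an offset of 50. At P0 it was at 5.73, 5.16 and 5.07 in tumors and 5.75, 7.29 and 5.77 in wild-type CP, where wild-type sample 2 stood above the others, and the difference of -0.95 did not pass (adjusted p = 0.129).

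En2, a gene of the cerebellum as well as of the midbrain-hindbrain boundary, was at 8.82, 9.25 and 8.90 in P0 tumors and 9.88, 10.29 and 10.07 in P0 wild-type CP. All P0 tumors lay below the wild-type samples, with a difference of -1.09 (95% interval -2.08 to -0.10) that did not pass the test (limma adjusted p = 0.153). It passed without P21 tumor sample 1 (-1.09, adjusted p = 0.00628), whose En2 value enters the pooled spread, in a fit of the P0 arrays alone (adjusted p = 0.0441) and with array weights (adjusted p = 0.0252). At P21 it was at 12.22, 9.80 and 10.40 in tumors and 10.24, 10.26 and 10.21 in wild-type CP. P21 tumor sample 1 was far above the other P21 tumors, and the group difference of 0.57 had an adjusted p of 0.458. Without that sample the sign turned, to -0.14 (adjusted p = 0.795).

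The same sample carried the highest value among P21 tumors for several members that cerebellar cells are known to express. Besides En2 these were Zic1 (12.77, against 11.75 and 11.88) and Zic2 (8.87, against 7.94 and 7.79), while Zic4 was not highest there (11.88, against 12.24 and 11.66). Irx2 and Meis1 (10.51, against 10.14 and 9.93) were also highest there. Hoxa2 (6.23), Hoxb2 (5.12), Irx3 (8.39) and Meis2 (7.80) were among the members lowest there. In that sample Cbln1, a gene of cerebellar granule cells, was at 14.49, against 9.54 and 6.80 in the other P21 tumors, and Reln was at 13.01 against 10.19 and 9.44. The 2 tested genes of the Purkinje cell list, Pcp2 and Foxp2, summed to 2311 against 79 to 142 on the other arrays. Of these Pcp2 was at 11.14 there, against 6.54 and 4.84 in the other P21 tumors, while Foxp2 was at 5.88 against 5.61 and 5.88. Calb1, Car8 and Ppp1r17 of that list did not pass the detection filter. The list of neurons summed to 40120 there and to 2410 to 4389 on the other arrays. Without this sample the limma calls at P21 held for Irx3 (1.73), Irx5 (1.14), Zic4 (1.83) and Irx2 (-2.17). They were lost for Hoxb4 (-1.17, adjusted p = 0.0626), Meis2 (-0.76, adjusted p = 0.052) and En1 (-1.26, adjusted p = 0.065). Among the uncalled P21 differences Hoxa4 went from 0.28 to 0.68, Hoxb2 from -0.15 to 0.33 and Zic2 from 0.39 to 0.05, and none of the members that missed the threshold passed it.

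No member differed in its tumor effect between the ages, against 4.43% of all genes. Of the 25 genes, 4 had an unadjusted p under 0.05 in this interaction test of limma, against 2105 of all 12379 genes. Nothing particular to the members is read from that count. The nearest to the threshold was Hoxb5 (1.09, adjusted p = 0.0542), followed by En2 (1.66, adjusted p = 0.197) and Hoxb4 (-1.24, adjusted p = 0.21). Hoxb5 passed the detection filter only through P0 wild-type CP and Hoxb4 only through P21 wild-type CP, the group in which each was high. Their interaction values therefore describe these arrays and lend no support beyond them. Without P21 tumor sample 1 the En2 interaction was 0.95 (adjusted p = 0.134) and that of Hoxa2 went from 0.46 to 0.93 (adjusted p = 0.161). Hoxb5 passed without P0 wild-type sample 1 (1.17, adjusted p = 0.0487) and in 4 other settings. For the 5 genes called at both ages, the 95% intervals of the interaction were -1.04 to 0.90 for Irx3, -1.26 to 0.37 for Irx5, -1.28 to 1.07 for Irx2, -0.34 to 1.37 for Zic4 and -0.69 to 0.77 for Meis2. Without P21 tumor sample 1 the Irx2 interaction went from -0.11 to -0.66, that of Irx3 from -0.07 to 0.25 and that of Meis2 from 0.04 to 0.25, with adjusted p of 0.375, 0.843 and 0.808.

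Between P0 and P21, more members fell than rose in both tissues, as did more of all genes tested. In wild-type CP, 1 of 25 rose (4%), against 7.38% of all genes, and 6 fell (24%), against 13.0%. In tumors, 1 rose (4%), against 9.94%, and 4 fell (16%), against 10.3%. Each of the 25 genes moves such a share by 4%, and nothing particular to these genes is read from such counts. The wild-type counts include Hoxb5, which fell, and Hoxb4, which rose. Both passed the detection filter only through the group in which they were high. The median difference of the 25 genes was -0.37 in wild-type CP and -0.29 in tumors, against -0.05 and -0.03 for all genes. The tumor count of 5 dropped to 2 without P0 tumor sample 1 or 3 and to 3 without P21 tumor sample 2 or 3 or without any of the P21 wild-type samples. Age and chip cannot be told apart in any of these values.

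Hoxd8 fell with age in both tissues. It was at 7.06, 6.75 and 7.07 in P0 tumors against 5.28, 5.29 and 5.84 in P21 tumors, and at 7.00, 5.83 and 6.60 in P0 wild-type CP against 5.03, 4.88 and 5.58 at P21. The ages did not overlap in either tissue. The fitted difference was -1.31 ± 0.30 in wild-type CP, where P21 was below background and the gene at least 1.66-fold lower (limma adjusted p = 0.00889), and -1.49 ± 0.30 in tumors (adjusted p = 0.00397). Without background correction the differences were -0.57 and -0.65, and they passed the test there too. With an offset of 50 the wild-type difference was -0.83, and in the authors' normalized values the differences were -0.63 and -0.73.

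Hoxa2 fell by 1.52 ± 0.35 in wild-type CP (limma adjusted p = 0.00836), where its 3 P0 values lay above its 3 P21 values. In tumors the difference was -1.07 ± 0.35 (adjusted p = 0.0472), a call lost in 5 processing settings and in 9 of the 12 fits without 1 sample. These left out any P0 tumor (adjusted p = 0.0606 to 0.141), P21 tumor sample 3 (0.0624), P0 wild-type sample 3 (0.0601), any P21 wild-type sample (0.0652 to 0.067) or P21 tumor sample 1. Without P21 tumor sample 1 the tumor difference was -0.59 (adjusted p = 0.135), and it was -0.66 without background correction and -0.68 in the authors' normalized values, where the call held. Hoxb5 fell in wild-type CP, at least 1.38-fold (fitted difference -1.35 ± 0.20, adjusted p = 0.000676), from values of 6.04, 6.53 and 6.03 to 4.82, 4.95 and 4.80. Here too Hoxb5 was tested only because of P0 wild-type CP, the group in which it was high. The fitted Hoxb5 difference was -0.60 without background correction, -0.64 in the authors' normalized values and -0.78 with an offset of 50. Hoxb4 rose in wild-type CP, from 4.59, 5.93 and 5.41 to 6.02, 6.23 and 6.86, by 1.06 ± 0.35 (adjusted p = 0.048), and was tested only because of the P21 wild-type arrays, in which it was high. That call was lost in 7 processing settings and 8 of the 12 fits without 1 sample. These left out P0 wild-type sample 1 (0.70, adjusted p = 0.156) or 3 (0.0867), any P21 wild-type sample (0.0593 to 0.189), P0 tumor sample 1 (0.058) or P21 tumor sample 2 (0.0632) or 3 (0.0614). The difference was 0.51 without background correction, 0.52 in the authors' normalized values and 0.65 with an offset of 50.

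Of the Hox partners, Meis1 fell with age in wild-type CP by 1.23 ± 0.23 (limma adjusted p = 0.00273), and a second probe fell by 0.80 (adjusted p = 0.0344 over probes). Pbx2 fell in both tissues, by 0.86 ± 0.21 in wild-type CP (adjusted p = 0.0118) and by 0.81 ± 0.21 in tumors (adjusted p = 0.0166). The wild-type call was lost without P21 wild-type sample 1 (adjusted p = 0.0535). The tumor call was lost with median scaling (0.076), in a fit of the tumor arrays alone (0.0607) and without P0 tumor sample 1 (0.0665), P0 tumor sample 3 (0.0591) or P21 tumor sample 2 (0.0551), all as adjusted p.

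Pbx4 was at 8.76, 8.36 and 8.62 in P0 wild-type CP and 7.37, 6.50 and 6.70 at P21, and fell by 1.72 ± 0.36 (limma adjusted p = 0.00553). Its ages did not overlap in wild-type CP, while its P0 tumor values of 8.81, 7.15 and 8.01 overlapped the P21 tumor values of 6.92, 7.35 and 6.78. The Pbx4 difference in tumors was -0.97 (adjusted p = 0.0805), and it was -1.39 (adjusted p = 0.0102) without P0 tumor sample 2, whose value made the overlap. The wild-type Pbx4 difference was -1.12 without background correction and -1.13 in the authors' normalized values. Its second probe gave -0.45 (adjusted p = 0.392 over probes), and the mean of the probes gave -1.09 (adjusted p = 0.0283). Pbx3 fell in tumors from 8.05, 8.45 and 7.84 to 6.79, 6.61 and 7.09, by 1.29 ± 0.42 (adjusted p = 0.0472). This call was lost in 7 processing settings and 10 of the 12 fits without 1 sample. These left out any P0 tumor (adjusted p = 0.074 to 0.122), any P21 tumor (0.0633 to 0.135), any P21 wild-type sample (0.0665 to 0.0667) or P0 wild-type sample 2 (0.0562). The difference was -0.80 without background correction and in the authors' normalized values.

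En2 rose with age in tumors by 1.82 ± 0.45 (limma adjusted p = 0.0138), from 8.82, 9.25 and 8.90 to 12.22, 9.80 and 10.40, with no overlap. Without P21 tumor sample 1, in which the cerebellar markers were high, the rise was 1.11 and still passed (adjusted p = 0.00721). A fit of the tumor arrays alone gave an adjusted p of 0.0662. In tumors Irx2 passed only without that same sample (-1.02, adjusted p = 0.0145).

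**Figure D5:**
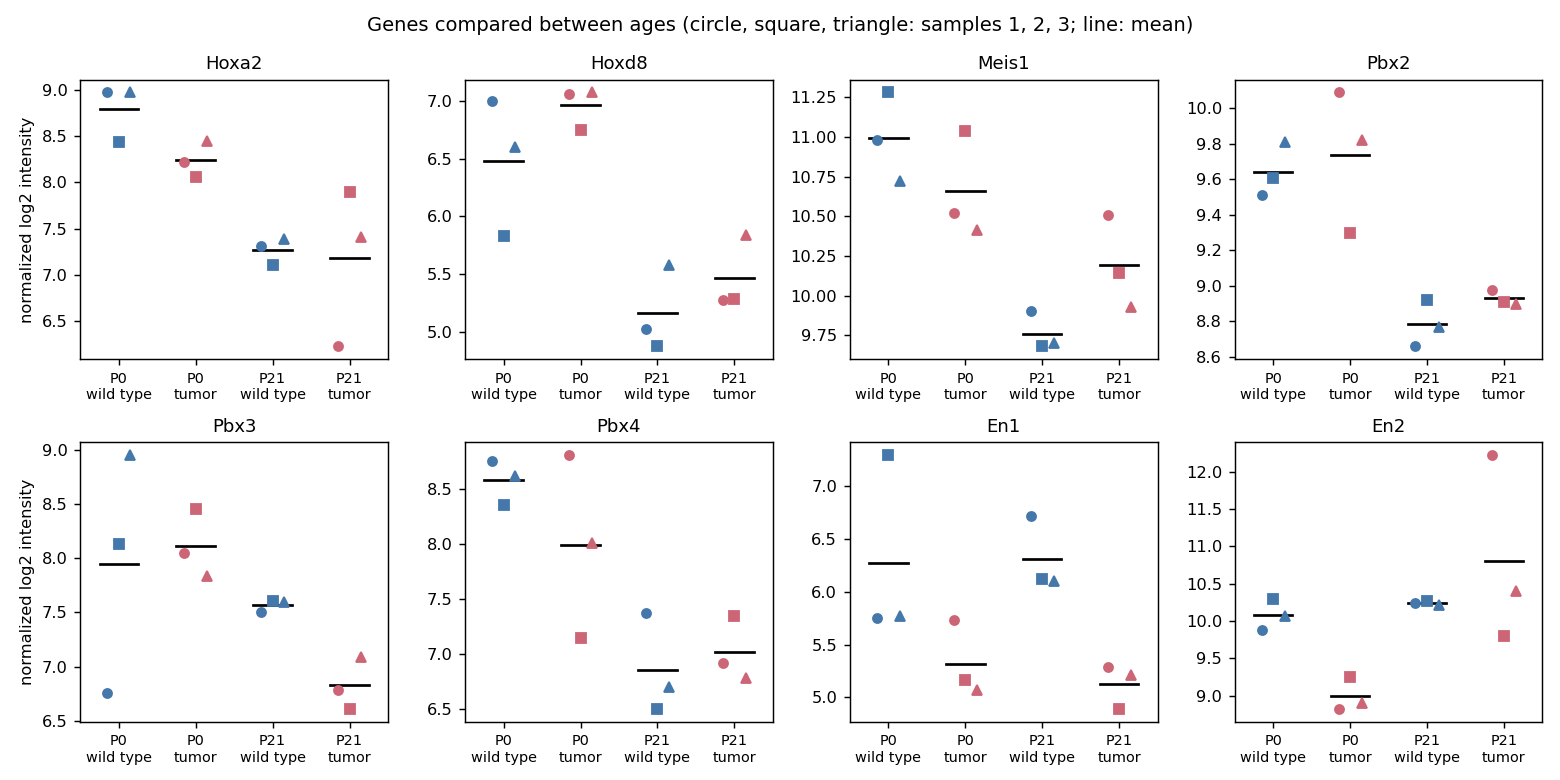
Normalized log2 intensity (y axis) of Hoxa2, Hoxd8, Meis1, Pbx2, Pbx3, Pbx4, En1 and En2, for the 3 samples of each group (symbols) with the group mean (line). En1 did not pass the test between ages in either tissue. Hoxb4 and Hoxb5, which passed in wild-type CP, are not drawn here. Hoxd8 and Pbx2 are lower at P21 in both tissues, and P21 tumor sample 1 (circle) is the highest En2 value.

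Genes that regulate or work with these factors were followed through lists made from textbook knowledge. Of 26 listed cofactors and regulators of Hox genes 14 were tested. At P0 0 of them were called by limma at an adjusted p under 0.05. An unadjusted p under 0.05 was reached by 5, against 3118 of all 12379 genes. At P21 4 were higher by limma, against 10.5% of all genes. Aldh1a2, which makes the retinoic acid that sets Hox domains, was higher in P21 tumors by 2.01 ± 0.26 (adjusted p = 0.000164), Aldh1a1, another retinaldehyde dehydrogenase, by 2.65 ± 0.33 (adjusted p = 0.000138), and Egr2, a regulator of Hoxa2 and Hoxb2 in the hindbrain, by 0.96 ± 0.19 (adjusted p = 0.00405). Their P0 differences of 0.22, 0.08 and 0.44 did not pass. Gbx2, the hindbrain counterpart of Otx2 at the boundary, did not pass the detection filter.

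Of 28 listed factors of the rhombic lip, roof plate and dorsal hindbrain 9 were tested, and the single call was Fgf8, the signal of the midbrain-hindbrain boundary, at least 1.33-fold higher in P0 tumors (limma adjusted p = 0.0273). Lmx1a, a roof plate factor, had differences of 0.43 (adjusted p = 0.207) and 0.38 (adjusted p = 0.240), and Otx2 of -0.03 (adjusted p = 0.958) and -0.20 (adjusted p = 0.677). Of 26 factors of the forebrain and midbrain 7 were tested, of which 2 were higher at P0, and 2 were higher and 2 lower at P21. Otx1 was among those higher, by 2.10 ± 0.33 at P0 (adjusted p = 0.00171) and 1.30 ± 0.33 at P21 (adjusted p = 0.0156). Rax was at least 1.78-fold higher (adjusted p = 0.00402) and Emx1 at least 1.90-fold lower (adjusted p = 0.000887) in P21 tumors. Fgf8 passed the detection filter only through P0 tumors, Rax only through P21 tumors and Emx1 only through P21 wild-type CP. Each was high in that group, so these differences describe those arrays and lend no support beyond them.

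The signal of cell type markers differed between tumor and wild-type CP as well, while cell numbers were not measured. Of 14 tested genes of CP epithelium 0 were higher and 3 lower in P0 tumors, and 0 were higher and 4 lower in P21 tumors, with summed levels of 226670 to 303500 in P0 tumors, 269880 to 372420 in P0 wild-type CP, 273550 to 284610 in P21 tumors and 380640 to 387020 in P21 wild-type CP. Genes of proliferation were higher for 6 of 6 tested at P0 and 1 of 6 at P21. Genes of astrocytes were higher for 1 and lower for 1 of 6 tested at P0 and higher for 4 and lower for 1 at P21, with summed levels of 26575 to 61996 in P21 tumors against 5929 to 7217 in P21 wild-type CP. Of 8 tested genes of pericytes and smooth muscle 1 was higher at P0 and 3 at P21, and of 6 of macrophages 2 were higher at P0 and 4 at P21. Tagln, of the pericyte and smooth muscle list, passed the detection filter only through P21 tumors, in which it was high. Its difference describes those arrays and lends no support beyond them. Of 5 tested mast cell genes 1, Kit, was higher and 4 (Cpa3, Tpsb2, Mcpt4 and Cma1) were lower in P0 tumors. Mcpt4 passed the detection filter only through P0 wild-type CP, in which it was high, so its difference describes those arrays. In P21 tumors Kit was again higher and 3 of the others were lower. Their summed level was 14055 to 21365 in P0 tumors, 9071 to 13089 in P0 wild-type CP, 9805 to 14602 in P21 tumors and 1877 to 2592 in P21 wild-type CP. That sum follows Kit, the brightest of the 5 on every array. Kit was at 13.75, 14.36 and 14.01 in P0 tumors and 13.42, 13.01 and 13.00 in P0 wild-type CP. At P21 it was at 13.52, 13.24 and 13.82 in tumors and 10.72, 11.15 and 10.67 in wild-type CP. Of 3 tested melanocyte genes 2 were lower at each age, with summed levels of 344 to 403 in P0 tumors, 787 to 855 in P0 wild-type CP, 352 to 401 in P21 tumors and 1962 to 3401 in P21 wild-type CP. The part of these cell types in the members' differences was not tested.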

How the data were processed

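RNA of 12 pooled samples was hybridized to Illumina mouse BeadChips with 45281 probes. The deposited scanner table, per the file headers, holds average bead intensities, linear and without normalization, each with its detection p-value. The authors also deposited a table of normalized intensity, linear as well, with column medians of 153.0 to 153.1 and the rank order of the scanner values, and served as an alternative. The software, the normalization and the build behind the array were not given in the sources used here. Symbols came from the platform annotation, updated with a RefSeq gene table of GRCm38.p6 (34807 by Entrez ID, 11 by accession, 67 kept).

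Intensities were background-corrected with normexp in limma 3.58.1 (R 4.3.3), taking control levels from the detection p-values, and an offset of 16, quantile-normalized and log2-transformed. Probes with a single symbol and a detection p-value under 0.05 on at least 3 of 12 arrays were kept (20021 probes), and the brightest probe stood for a gene (12379 genes, 5066 with several probes). Group means over the 12 arrays were fitted with lmFit and eBayes (8 residual and 4.21 prior degrees of freedom) and p-values adjusted by Benjamini-Hochberg within each of 5 comparisons, with a threshold of 0.05. The code was tested on simulated data. Where a group had a gene below background on all its arrays, the fold is a lower bound, taken against the higher of the gene's own signal and the array's lowest detected signal, and its fitted difference is no bound. Arrays give intensities and not counts, so 3 arrays per group limit the precision. That samples of a group came from separate collections is stated, but the number of animals and their litters are not, so the p-values rest on the spread among these samples, which may be partly technical.

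The labels number the replicates alike in tumor and wild type. At P0 like-numbered samples moved together around their group means (r = 0.43, 0.43 and 0.104, all over 0.1, the last only just), and by that criterion the numbers pair them. Unlike-numbered P0 samples gave r of -0.41 to 0.097, so the value of the samples numbered 3 was hardly above the highest of these. At P21 like-numbered samples did not move together (r = -0.08, -0.03 and -0.14). The fits without pairs are reported, with the block on replicate number as an alternative. All tested members are named, and those past the threshold and the brightest of each family are given on every array. From other lists up to 3 genes with the smallest adjusted p are named, beside Otx2, Gbx2, Lmx1a, Atoh1, Notch1 and Ttr. The members and lists were chosen with earlier results of these data known, and the test of every probe by itself was added after seeing the data.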

Additional observations from a re-analysis of the deposited data

How the results depend on the processing

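Of 25 called differences of single members, 10 held in each of the 22 to 24 other settings run for them and 15 were lost in at least 1. The replicate block was not run between ages, and the filter on all 12 arrays left out Hoxb5 and Hoxd8. The 10, of which Hoxb5 passed the detection filter only through the group it was high in, were Irx5 and Hoxb5 at P0, Irx3 and Zic4 at P21, Hoxa2, Hoxb5, Hoxd8, Meis1 and Pbx4 between ages in wild-type CP and Hoxd8 between ages in tumors. No called difference changed its sign, and the cause of the losses was not tested. Of 15 uncalled differences that passed in some setting, Pbx3 between ages in wild-type CP changed sign, to 0.13 without P0 wild-type sample 3 (limma adjusted p = 0.845), and was -0.97 without P0 wild-type sample 1. With the replicate number as a block, which pairs the P0 samples, 1410 genes and 6 members passed at P0 and 2407 genes and 7 members at P21, and 611 genes and 0 members for the interaction, and no member call changed. With 1 sample left out, the number of all genes past the threshold ranged from 766 to 1739 at P0 (all samples 1397), from 1474 to 2636 at P21 (2221), from 299 to 738 in the interaction (549), from 1654 to 2984 between ages in wild-type CP (2518) and from 1731 to 3044 between ages in tumors (2501). For members these ranges were 3 to 7 at P0, 4 to 7 at P21, 0 to 1 for the interaction, 5 to 8 between ages in wild-type CP and 2 to 5 between ages in tumors. A fit of the P0 arrays alone called 561 genes at P0. Array weights called 2938 genes in newborns, 4873 at P21, 2042 for the interaction, 4144 between ages in wild-type CP and 5033 between ages in tumors. Keeping only probes detected on all 12 arrays called 346 genes in the interaction. In the interaction 1 member passed with no detection filter, with probes detected on all 3 arrays of a group and with the mean of probes, and 4 with array weights. Between ages in wild-type CP 4 members passed among probes detected on all 12 arrays, where fewer are tested. Between ages in tumors 3 passed with cyclic loess, without a filter and for the probes' mean, 2 with median scaling and in a fit of the tumor arrays alone, and 8 with array weights. At a detection p-value under 0.01 the members detected were 15, 14, 13 and 14 in P0 tumors, P0 wild-type CP, P21 tumors and P21 wild-type CP, and on 2 of 3 arrays 21, 21, 18 and 19. Signal over background limits the Hoxb4, Hoxb5, Hoxd8 and En1 values, whose differences depend on the background correction.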
